A study of Homo sapiens with 6 samples.

Results

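The MYC, MAX and MXD network was followed through 10 genes in RD cells, an established human embryonal rhabdomyosarcoma line, in which TAK1 (gene MAP3K7) had been knocked down. The members, MYC, MYCN, MYCL, MAX, MXI1, MXD1, MXD3, MXD4, MNT and MLX, were taken by gene symbol, and each symbol matched 1 of the 58735 rows of the count table. All 10 had enough counts to be tested, among 15935 genes tested in all. Control cells had received lentiviral particles with scrambled shRNA (n = 3) and knockdown cells had received particles with TAK1 shRNA (n = 3), which by the study's account was shRNA 1 of the pair made, so the knockdown rests on 1 sequence. No drug and no time course enters the comparison, both groups carried the same kind of lentiviral vector, and an effect of the knockdown and one of that construct cannot be told apart. The labels give replicate numbers but not whether the cultures were separate. The p-values set the difference between groups against a spread estimated from these samples, and that spread may be technical.

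MYC, MYCN and MYCL are basic helix-loop-helix leucine zipper transcription factors that bind DNA only as a pair with MAX, at E-boxes whose preferred letters are CACGTG. The MXD proteins (MXD1, MXI1, MXD3 and MXD4) and MNT take the place of MYC beside MAX and bring in the SIN3 and histone deacetylase corepressor complex, so that the same sites are held in an activated or a repressed state. MLX is a MAX-like partner that pairs with the glucose-responsive factors MLXIP (MondoA) and MLXIPL (ChREBP), and also with MXD1, MXD4 and MNT. In many lineages MYC drives growth and division, while MXD genes are known to rise as cells leave the cycle and differentiate, with MXD3 as the member tied to S phase. RD cells are known to carry an amplified MYC locus.

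MAP3K7 itself stood at 77.3 ± 0.743 CPM (counts relative to the library total after normalization) in control and 31.3 ± 2.00 CPM in TAK1 knockdown cultures (SD, n = 3). The samples held 28839898 to 34469323 counts each, and a member's count in a single sample ran from 249 for MXD3 to 10066 for MYC, so relative counting error was largest for MXD3, MXD1, MYCN and MAX. The muscle lineage markers MYOD1, MYOG, DES, CHRNA1, CDH15 and PAX7 were expressed, at 130 to 921 CPM in control cultures, and of these 6 genes MYOD1 and MYOG rose (log2 fold changes of 0.37 and 0.27), CHRNA1 fell (-0.40) and 3 were not called, and MYF5 and MYF6 held 0 and 2 counts over all 6 samples. All 9 markers of epithelial, blood, endothelial and liver cells were too low to test, with EPCAM the highest at 46 counts in all samples together. In such bulk samples, fewer cells that express a gene and less RNA per cell cannot be told apart.

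Of the 10 members, 5 rose in TAK1 knockdown cells and 0 fell, where a call needed both an adjusted p below 0.05 and a log2 fold change of 0.25 or more in size. Across all genes tested, 11.8% were called higher and 11.3% lower by the same thresholds, 23.1% in either direction. The genes that rose were MYCL, MXD4, MNT, MXI1 and MYC, so they came from both the MYC side and the MXD and MNT side of the network. The median log2 fold change of the 10 members was 0.26, against 0.018 over all genes tested. In 6 members, the 5 that rose and MYCN, every knockdown culture lay above every control culture, a pattern found in 21.6% of all genes tested. For each of these 6 genes the two-sided exact permutation p was 0.1, the smallest that 3 against 3 allows, so the calls rest on edgeR's quasi-likelihood test, which shares its estimate of the spread across genes.

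**Figure D1:**
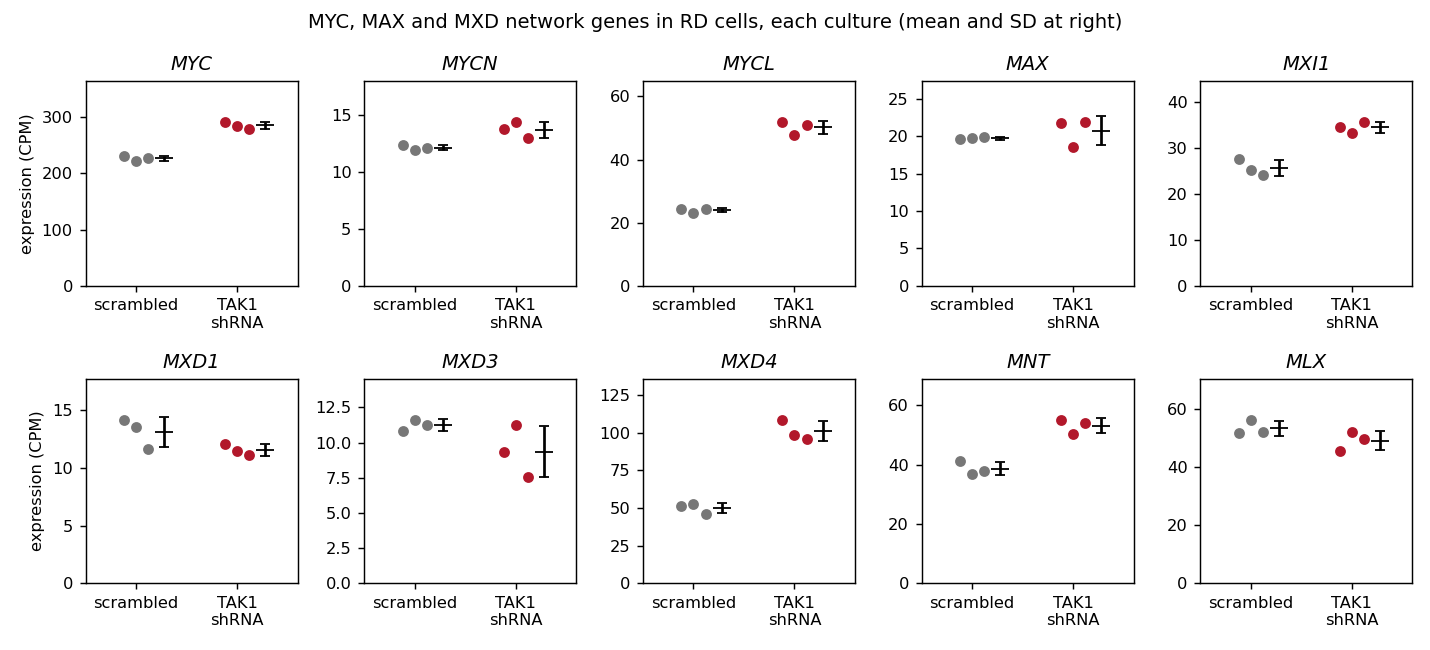
Expression of the 10 network genes in CPM (y axis, linear, from 0) in each scrambled shRNA culture (grey points) and each TAK1 shRNA culture (red points), with the mean and SD of 3 cultures beside them. MYCL and MXD4 roughly doubled, MYC, MNT and MXI1 rose by less without overlap between the groups, and the groups of MAX, MXD1, MXD3 and MLX overlap.

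On the activating side, MYCL showed the largest change of the network. MYCL (ENSG00000116990.12), the MYC paralog first found in small cell lung cancer, was measured at 24.5, 23.2 and 24.3 CPM in the control cultures and at 51.9, 47.8 and 50.9 CPM in the knockdown cultures. All knockdown cultures were thus near double the control cultures, and the groups did not overlap. The means were 24.0 ± 0.703 and 50.2 ± 2.13 CPM (SD, n = 3), a 2.09-fold rise, and the log2 fold change came to 1.07 ± 0.067 (SE, adjusted p = 5.79e-12 in edgeR's quasi-likelihood test, Benjamini-Hochberg method). Only 2.35% of the genes tested had a larger absolute log2 fold change. With each culture left out in turn it stayed between 1.04 and 1.10. The MYCL gene lies on chromosome 1 from 39895428 to 39902256 on the minus strand of GRCh38, and 4.6% of its annotated exon bases are shared with an antisense gene, MYCL-AS1.

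MYC, the central oncogene of the family, was by far the most abundant member, and its rise was smaller in relative terms. It was measured at 231, 222 and 227 CPM in control cultures and at 292, 285 and 279 CPM in TAK1 knockdown cultures. The lowest knockdown culture lay well above the highest control culture. The means of 227 ± 4.59 and 285 ± 6.07 CPM (SD, n = 3) gave a 1.26-fold rise, a log2 fold change of 0.33 ± 0.044 (SE, adjusted p = 1.66e-06 by edgeR's quasi-likelihood test). This value ranged from 0.32 to 0.35 with each culture left out, and it lies under the stricter fold threshold of 0.5. The 95% interval of the MYC change ran from 0.24 to 0.42 and that of MYCL from 0.93 to 1.20, so these intervals did not meet. The gene spans 127735434 to 127742951 of chromosome 8, and 3.2% of its exon bases are shared with the antisense gene CASC11, which held 9 counts in all samples together. PVT1, a long noncoding RNA gene next to MYC, went from 14.9 to 17.3 CPM on average, with a log2 fold change of 0.21 that did not pass the test (adjusted p = 0.0658 by edgeR). Without replicate 3 of the knockdown cultures PVT1 passed both thresholds at 0.25, and with scaling by library size alone at 0.26.

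MYCN, the MYC paralog amplified in neuroblastoma, was low in these cells. Its values were 12.3, 11.9 and 12.1 CPM in control cultures and 13.7, 14.4 and 13.0 CPM in knockdown cultures. These groups did not overlap, yet the log2 fold change of 0.18 did not pass the test (adjusted p = 0.152 by edgeR), and its 95% interval ran from -0.014 to 0.37. MYCNOS, the antisense gene at the MYCN locus, was at 0.445 and 0.358 CPM, too low for a statement on its direction. FUBP1, CTCF, IGF2BP1, IGF2BP2 and IGF2BP3 encode RNA and chromatin factors that act on MYC transcripts or the MYC locus. Of these genes 0 were called in either direction, beside 23.1% of all genes tested, and with so few genes this count says little. CTCF had an adjusted p under 0.05 and a log2 fold change of -0.15 by edgeR.

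E-box letters at the promoters were read from RefSeq windows of 300 bases, 250 before and 50 after a start site (GRCh38.p14). MYC had no window, so its promoter was not read, and the 9 members with a window had 12 windows in all. CACGTG reads the same on both strands, and it was found in 3 of these 12 windows, those of MXD4, MNT and MLX, and in 7.26% of the 35116 windows of all genes. Those 3 stretches are shown because they hold the very letters that MAX pairs prefer, in 2 antagonists that rose and in MLX, which was not called. The E-box is in capitals and begins 238, 193 and 50 bases upstream of the start site in MXD4, MNT and MLX.
MXD4, minus strand of chr4:2262322-2262359: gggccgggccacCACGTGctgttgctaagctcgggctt
MNT, minus strand of chr17:2401228-2401273: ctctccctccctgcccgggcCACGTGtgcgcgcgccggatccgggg
MLX, plus strand of chr17:42567030-42567075: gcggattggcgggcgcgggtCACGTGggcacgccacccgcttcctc
The windows of MYCL, MXI1, MXD1, MXD3, MYCN and MAX did not hold these letters. The matches describe letters, not binding.

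MXD4 was the other member that doubled. MXD4 (ENSG00000123933.17) is a MYC antagonist found in differentiating tissues, and it was measured at 51.2, 53.0 and 46.3 CPM in control cultures and at 109, 98.7 and 95.8 CPM in TAK1 knockdown cultures. The groups stood far apart. Its mean went from 50.2 ± 3.45 to 101 ± 6.70 CPM (SD, n = 3), a 2.01-fold rise with a log2 fold change of 1.01 ± 0.061 (SE, adjusted p = 3.58e-12 by edgeR's quasi-likelihood test). The share of tested genes with a larger absolute change was 2.71%. Leaving out each culture in turn moved this log2 fold change between 0.95 and 1.05. MXD4, whose promoter window holds the most distant of the E-boxes shown, lies on chromosome 4 from 2247432 to 2262109 on the minus strand, and only 1.2% of its exon bases are shared, with the microRNA gene MIR4800, which had 0 counts.

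MNT and MXI1 rose by less, and to a similar degree. MNT, the broadly expressed antagonist that holds MYC targets in check in resting and cycling cells alike, stood at 41.1, 36.7 and 37.9 CPM in control cultures and at 55.1, 50.2 and 53.8 CPM in knockdown cultures. Its log2 fold change was 0.46 ± 0.065 (SE, adjusted p = 4.42e-06 by edgeR), a 1.37-fold rise without overlap between the groups, and it is the other antagonist with an E-box in its window. For MXI1, also called MXD2, the values were 27.6, 25.1 and 24.1 CPM in control and 34.5, 33.2 and 35.6 CPM in knockdown cultures. Again the groups were separate, with a log2 fold change of 0.43 ± 0.072 (SE, adjusted p = 4.65e-05 by edgeR). With each culture left out, MNT ranged from 0.42 to 0.51 and MXI1 from 0.39 to 0.49. Over all cultures both lie under the fold threshold of 0.5. An unnamed antisense gene shares 12.2% of the exon bases of MNT, on chromosome 17 from 2384073 to 2401104, and another shares 3.5% of those of MXI1, on chromosome 10 from 110207605 to 110287365.

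MXD1 and MXD3 did not follow the other antagonists. MXD1, the founding member of the family, was measured at 14.1, 13.5 and 11.6 CPM in control cultures and at 12.1, 11.4 and 11.1 CPM in knockdown cultures, and the groups overlapped. Its log2 fold change of -0.18 did not pass the test (adjusted p = 0.173 by edgeR), with a 95% interval from -0.39 to 0.024, an interval that lies wholly below those of MXI1, MNT and MXD4. SNRNP27, which shares 3.7% of the exon bases of MXD1 on the same strand, fell by 0.38 (adjusted p = 0.000759 by edgeR), and its part in the MXD1 value was not tested. MXD3, the S phase member, had values of 10.8, 11.6 and 11.3 CPM in control and 9.30, 11.2 and 7.54 CPM in knockdown cultures. The knockdown cultures differed widely, and replicate 2 fell within the control range. The log2 fold change of MXD3 was -0.26 (adjusted p = 0.102 by edgeR), and leaving out knockdown replicate 2 brought it to -0.42, past both thresholds (adjusted p = 0.00742 by edgeR), while leaving out knockdown replicate 3 brought it to -0.14 (adjusted p = 0.398 by edgeR). Its 95% interval over all cultures, from -0.51 to -0.012, also lay below those of the 3 antagonists that rose. MXD3 counts are the least certain of the network, since 43.7% of its exon bases on chromosome 5 are shared with PRELID1 or RAB24, and 19.5% of its exon bases are shared on the same strand. PRELID1 and RAB24 had log2 fold changes of -0.072 and 0.093 and were not called.

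MAX, the obligate partner, showed no called change. It was at 19.6, 19.7 and 19.9 CPM in control cultures and at 21.8, 18.6 and 21.9 CPM in knockdown cultures, where replicate 2 lay below and the others above all controls. The log2 fold change of 0.072 had a 95% interval from -0.099 to 0.24 (adjusted p = 0.551 by edgeR), so a change of the size seen for MYCL or MXD4 lies outside it. MLX was at 51.8, 56.4 and 52.1 CPM in control and 45.6, 52.2 and 49.7 CPM in knockdown cultures, with overlap between the groups. Its log2 fold change was -0.12, with a 95% interval from -0.25 to 0.013 (adjusted p = 0.163 by edgeR). The antisense neighbour PSMC3IP, which shares 18.2% of the exon bases of MLX on chromosome 17, fell by 0.44 on the log2 scale (adjusted p = 0.00268 by edgeR), and the part of shared reads in the MLX value was not tested. FNTB and other genes share 16.1% of the exon bases of MAX, on chromosome 14.

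**Figure D2:**
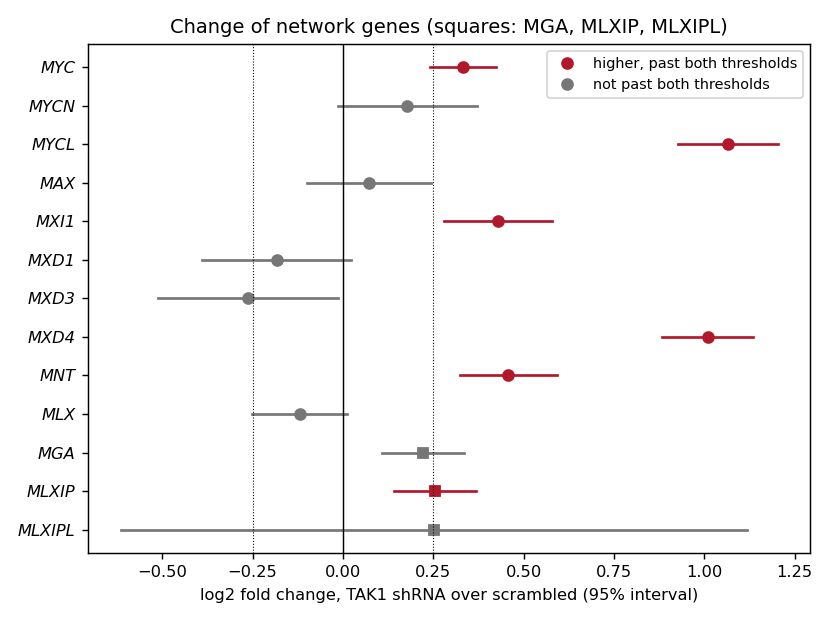
Log2 fold change of each network gene in TAK1 shRNA over scrambled shRNA cultures (x axis) with its 95% interval from edgeR's quasi-likelihood fit, circles for the 10 members and squares for MGA, MLXIP and MLXIPL, with dotted lines at the fold threshold of 0.25. The intervals of MYCL and MXD4 lie apart from those of the other members, and those of MAX, MYCN, MXD1 and MLX include 0.

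MGA, MLXIP and MLXIPL complete the network. MGA, a very large protein that pairs with MAX in a repressor complex, went from 118 to 138 CPM on average, a log2 fold change of 0.22 that passed the adjusted p (0.00275 by edgeR) but not the fold threshold. MLXIP, the MondoA partner of MLX, went from 142 to 170 CPM and was called at 0.26 (adjusted p = 0.000759 by edgeR), just past the threshold. With no expression filter the MLXIP call was lost, at 0.249. It was also lost on leaving out control replicate 2 or 3 (0.24 and 0.24) or knockdown replicate 1 (0.19). MGA passed both thresholds without that last culture, at 0.27, and with scaling by library size alone. MLXIPL was near the detection limit at 0.528 and 0.635 CPM. Of the genes known to respond to MLX with its partners, ARRDC4, an arrestin-like regulator of glucose uptake, rose from 16.1 to 21.7 CPM, a log2 fold change of 0.43. TXNIP, the best known of these targets, had 0.092 and was not called (adjusted p = 0.165 by edgeR). FASN, for fatty acid synthase, had 0.25, just under the threshold, and passed it without control replicate 1 (0.31) or knockdown replicate 2 (0.30). FASN also passed with upper-quartile scaling (0.26), with scaling by library size alone (0.30) and with at least 10 counts in every sample (0.25). KLF10 had -0.19 and passed the threshold without replicate 3 of the knockdown cultures, at -0.25.

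To compare members with each other, CPM was divided by the kilobases of annotated exon of each gene. In control cultures MYC stood highest at 37.1 ± 0.752 CPM per kilobase (SD, n = 3), above MLX at 12.6 and MXD4 at 7.30. MYCL, MNT, MYCN and MXI1 followed at 4.83, 4.44, 4.39 and 4.33 CPM per kilobase, and these neighbours overlapped in their ranges over cultures. MAX at 3.15, MXD3 at 2.37 and MXD1 at 2.06 came last, each apart from its neighbour. In TAK1 knockdown cultures MXD4 at 14.7 CPM per kilobase moved past MLX at 11.6, behind MYC at 46.7. MYCL at 10.1 stood alone in the fourth place, MNT at 6.09 and MXI1 at 5.83 overlapped, MYCN at 4.96 and MAX at 3.32 were separate from their neighbours, and MXD3 at 1.97 and MXD1 at 1.82 overlapped. Where the longest transcript stood in for all exon bases, the 3 highest members kept these places in both groups, and the order of the lower ones changed, with MYCN at 4.63 CPM per kilobase in control cultures below MXD3 at 4.92.

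Summed per kilobase, MYC, MYCL and MYCN reached 47.2, 45.3 and 46.5 in control cultures 1, 2 and 3 and 63.2, 61.5 and 60.7 in the knockdown cultures. MYC supplied 80.0% to 80.2% of this sum in control and 75.4% to 75.9% in knockdown cultures, while the share of MYCL went from 10.3% to 10.5% up to 15.7% to 16.9%. The 5 antagonists, MXD1, MXI1, MXD3, MXD4 and MNT, summed to 21.4, 20.8 and 19.4 in control cultures and to 31.8, 29.9 and 29.5 in knockdown cultures, of which MXD4 made up 34.8% to 37.1% and 47.3% to 49.6%. Both sums were thus higher in every knockdown culture. The antagonist sum was 0.453, 0.459 and 0.417 of the MYC sum in control cultures and 0.504, 0.486 and 0.486 of it in knockdown cultures. These ratios of transcript levels did not overlap between the groups, and with the longest transcript lengths they ran from 0.449 to 0.491 and from 0.520 to 0.540. They depend on the exon lengths used and were not tested.

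**Figure D3:**
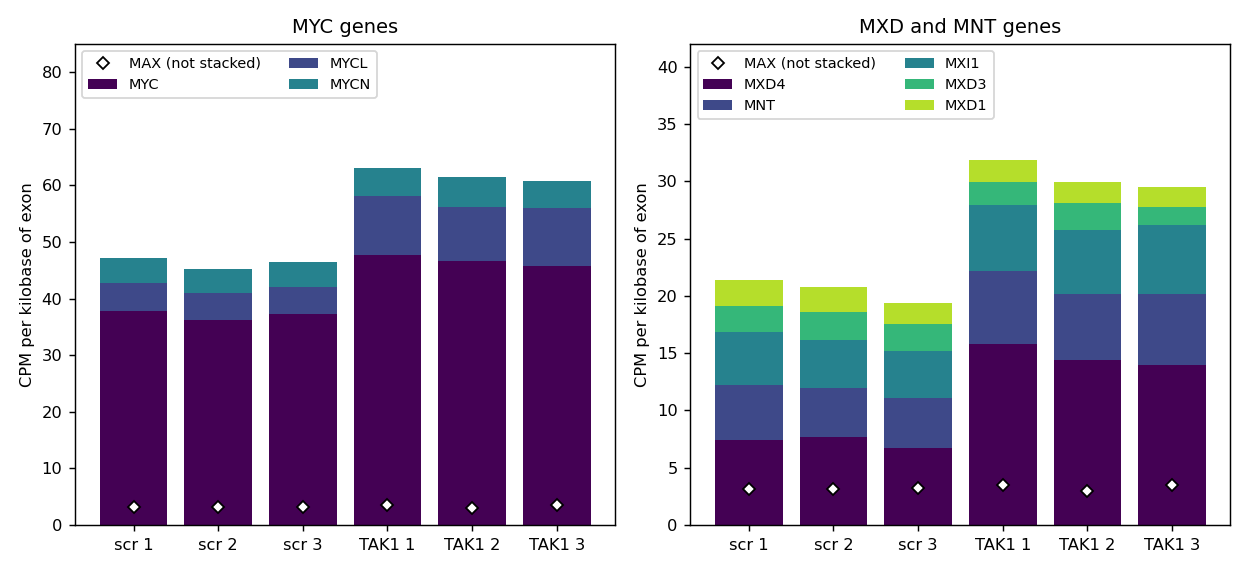
Level per length (CPM per kilobase of exon, linear axes from 0, different on each side) stacked for the 3 MYC genes on the left and for the 5 MXD and MNT genes on the right, in each scrambled (scr) and TAK1 shRNA (TAK1) culture, with MAX as open diamonds. The MYC stacks stand at 45.3 to 47.2 in control and 60.7 to 63.2 in knockdown cultures, the antagonist stacks at 19.4 to 21.4 and 29.5 to 31.8, and MAX stays between 2.97 and 3.51.

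Among the partners that MXD, MNT and MYC recruit, few genes passed both thresholds. Of the 14 genes of the SIN3 corepressor complex and its relatives, 0 rose and 3 (21.4%) fell, beside 11.8% and 11.3% of all genes tested. These were SAP18 at -0.60, SUDS3 at -0.52 and SAP130 at -0.28, which encode structural subunits of the complex (adjusted p = 6.03e-08, 3.45e-07 and 0.000326 by edgeR). SIN3A and SIN3B, the scaffolds that MXD proteins bind, had 0.024 and 0.059. The deacetylase genes HDAC1 and HDAC2 had -0.14 and -0.17, past the adjusted p (0.0152 and 0.00439 by edgeR) but under the fold threshold. The median of the list was -0.14, with 11 of 14 genes below 0, beside 7565 of all 15935 genes tested. Among 18 coactivators of MYC, the acetyltransferase gene CREBBP rose by 0.31 (adjusted p = 4.11e-05 by edgeR), 1 called gene or 5.56% of the list, and 0 genes fell. With no fold threshold, 8 of the 14 corepressors fell and 0 rose, and 7 of the 18 coactivators rose and 1 fell. The share of all genes at that setting is not given here.

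Of 20 genes that control the stability of MYC protein, 1 rose (5%) and 5 fell (25%), beside 11.8% and 11.3% of all genes tested. The list median was -0.0043, with 10 genes above and 10 below 0. SKP2, a ubiquitin ligase subunit that also drives the cell cycle, fell from 337 to 201 CPM, a log2 fold change of -0.75 (adjusted p = 1.96e-12 by edgeR). AURKA, the mitotic kinase that shields MYCN and MYC from degradation, fell by 0.75 (adjusted p = 7.44e-12 by edgeR). CIP2A, an inhibitor of the phosphatase PP2A, fell by 0.41, and the deubiquitinase gene USP22 by 0.40. The remaining called gene that fell, PPP2R5A, a PP2A subunit that directs the phosphatase to MYC, had -0.35. FBXW7, the ligase subunit that recognizes phosphorylated MYC, went from 22.7 to 27.0 CPM and was called at 0.25 (adjusted p = 0.0138 by edgeR). The call of FBXW7 was lost without control replicate 2 (0.22) or knockdown replicate 2 or 3 (0.20 and 0.23), and also in DESeq2, with its normalization in edgeR and with no expression filter, where the value came just under 0.25.

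Genes that MYC is known to activate were more often lower than higher. In 2 lists of 68 such genes, 14 fell and 1 rose, with a median log2 fold change of -0.097. Of the 68 genes, 57 lay below 0, beside 7565 of all 15935 genes tested. The share of the 68 genes called lower was 20.6% and the share called higher was 1.47%, beside 11.3% and 11.8% of all genes tested. Most of the calls lay in the metabolism and growth list, with 11 of 33 genes lower. There, CCND2, for cyclin D2, fell from 412 to 242 CPM, a log2 fold change of -0.77 (adjusted p = 6.45e-12 by edgeR). CDC25A, for a phosphatase that activates cyclin-dependent kinases, fell by 0.52 (adjusted p = 2.32e-08 by edgeR). LDHA, for lactate dehydrogenase A, fell from 750 to 599 CPM, a log2 fold change of -0.32 (adjusted p = 7.28e-07 by edgeR). In the same list ODC1, a classic E-box target, had -0.15, under the fold threshold, and CAD had -0.015. The amino acid transporter gene SLC7A5 was the 1 gene that rose, at 0.27, and this count was 0 without control replicate 2 or 3 (0.25 and 0.24 for SLC7A5) or knockdown replicate 1 (0.20), and 2 without knockdown replicate 3.

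Of the 35 genes of the ribosome biogenesis list, 3 fell and 0 rose. The share that fell, 8.57%, was near the 11.3% of all genes tested. The median was -0.061, and 29 of the 35 genes lay below 0, beside 7565 of all 15935 genes tested. NIP7, a factor of pre-rRNA processing, fell from 61.7 to 36.1 CPM, a log2 fold change of -0.77 (adjusted p = 3.57e-10 by edgeR). WDR43 and FBL, for another processing factor and for fibrillarin, fell by 0.37 and 0.28. NCL and NPM1, for the abundant nucleolar proteins nucleolin and nucleophosmin, had -0.061 and -0.12 and were not called. The counts of NOP2 in this list and of EIF4A1 in the other, at 1.07 and 5.46 CPM in control cultures, are uncertain, since genes on the same strand share 54.4% and 47.4% of their exon bases.

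Of 11 genes that MYC is known to repress, 6 fell (54.5%) and 0 rose, beside 11.3% and 11.8% of all genes tested called lower and higher, and the median was -0.29. NDRG1, a stress-responsive growth suppressor, fell from 32.9 to 15.1 CPM, a log2 fold change of -1.12 (adjusted p = 7.21e-11 by edgeR). The cyclin-dependent kinase inhibitor gene CDKN2B fell by 0.84, the growth arrest gene GADD45A by 0.80 and the cyclin G2 gene CCNG2 by 0.43 (adjusted p = 3.35e-08, 6.46e-10 and 2.39e-06 by edgeR). CDKN1A fell by 0.41 (adjusted p = 3.42e-05 by edgeR). For its protein, p21, the study's protein array gave a rise on TAK1 silencing, a measure of protein and not of RNA. THBS1 fell by 0.29 and missed the fold threshold on leaving out control replicate 1 or knockdown replicate 2, at -0.23 in both. With scaling by library size alone THBS1 also missed it, at -0.24. CDKN1B, for p27, had 0.057 and was not called. The called genes of the activated and of the repressed lists were thus mainly lower in knockdown cultures.

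**Figure D4:**
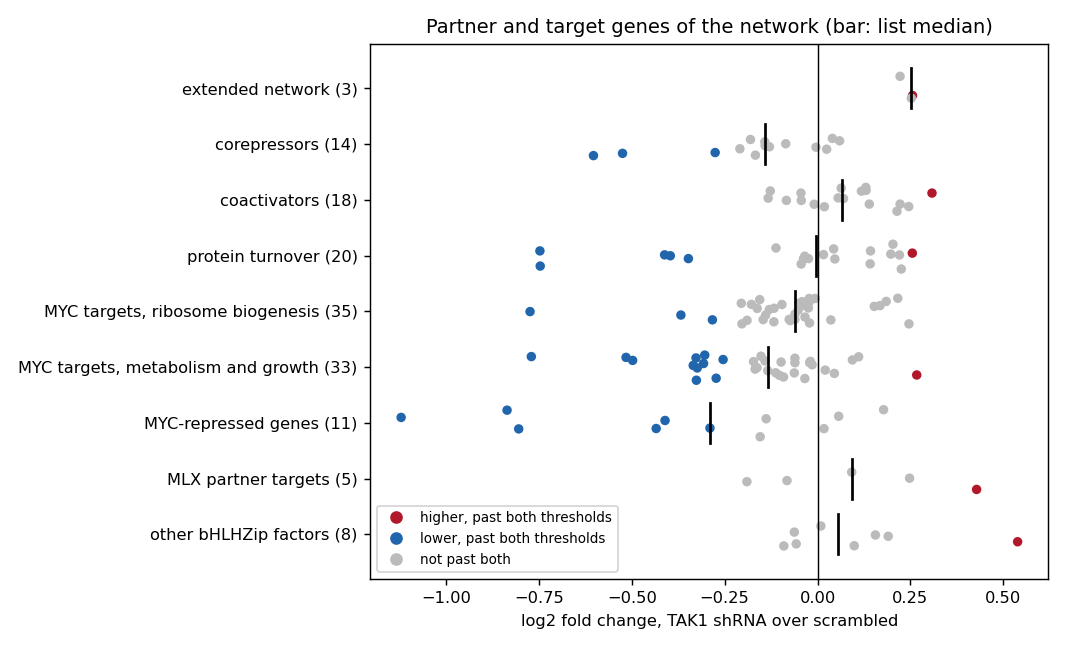
Log2 fold change in TAK1 shRNA over scrambled shRNA cultures (x axis) of each tested gene of 9 hand-written lists around the network (rows, number of genes in brackets), coloured by whether it passed both thresholds, with a bar at the list median. The median lies lowest in the repressed list, at -0.29, followed by corepressors at -0.14, metabolism and growth at -0.13 and ribosome biogenesis at -0.061, and each of these 4 lists holds called genes on the left.

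Among all other genes tested, the profile of MYC over the 6 samples, as log2 CPM centred on its mean, was most like those of MAML1, YBX3 and ABR, at Euclidean distances of 0.040, 0.047 and 0.050 on the log2 scale. Their log2 fold changes were 0.32, 0.31 and 0.33, beside 0.33 for MYC. With 6 samples in 2 groups, such closeness mainly says that the size of the change and the small differences between replicates were alike.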

How the data were processed

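Poly(A)-enriched RNA of 6 RD cell cultures was sequenced. The authors called bases with CASAVA, removed adaptor-containing and low-quality reads, aligned the rest to GRCh38 with STAR and deposited raw counts per gene. The counting program, annotation release and strand use are not given in the sources used here, so overlapping genes may share or lose reads.

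Counts were tested with edgeR 4.0.16 (R 4.3.3), after filterByExpr and with trimmed mean of M-values scaling, which the study's methods name, by its quasi-likelihood test with Benjamini-Hochberg adjustment over 15935 genes. Intervals are 95% intervals from that fit. The alternatives were DESeq2 1.42.0, voom in limma 3.58.1, other normalizations, filters and fold thresholds, and a replicate block. The tests were checked on simulated data. Values of some listed genes are not reported here. Exon lengths, coordinates and overlaps came from GENCODE 44, of the same genome build. Named were all members, genes of the short lists, and at most the 4 called genes of lowest adjusted p per direction in longer lists, and the 3 genes nearest to MYC in profile. The other genes named (ODC1, CAD, SIN3A, SIN3B, HDAC1, HDAC2, PPP2R5A, NCL, NPM1, NOP2, EIF4A1, CDKN1A, CDKN1B, THBS1, ENO1, HK2, CDK4 and genes overlapping members) were chosen after their values were seen. The members and lists were chosen with earlier results of these data known. All replicates of a group differed by more than sampling noise (chi-square per degree of freedom 2.86 to 8.67).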

Additional observations from a re-analysis of the deposited data

How the results depend on the processing

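The 5 members that rose did so under each normalization, filter and test tried and with each culture left out, and only the fold threshold of 0.5 lowered the count, to 2 (MYCL and MXD4). The count of members that fell, 0, became 1 (MXD3) without replicate 2 of the knockdown cultures, so it ran from 0 to 1 with each culture left out. With the replicate number as a block (replicate block) it was also 1, MXD3 at -0.27 (adjusted p = 0.0459 by edgeR). Samples with the same number did not deviate together (correlations of 0.016 to 0.037 across genes), so the numbers were not taken to pair the cultures. Of the MYC-activated genes, 14 fell, 11 to 14 with each culture left out, 25 with no fold threshold and 3 at 0.5. The 1 that rose became 0 to 2 with each culture left out, 4 with no fold threshold, 0 at 0.5 and 3 with scaling by library size alone, which moved the median log2 fold change of all genes by 0.048 and their calls from 1879 higher and 1805 lower to 2376 and 1404. The shares of all genes called with no fold threshold or at 0.5 are not given here. The counts at these settings therefore have no background beside them. MLXIPL, at 0.25, ran from -0.051 to 0.49 with each culture left out. Fold changes near 0.25 decided several calls, among them ENO1, HK2, CDK4, SAP130 and FBL. Of 747 values, 52 log2 fold changes each recomputed under its alternatives, 704 kept direction and call, 30 lost the call, 12 gained it and 1 reversed. Counts for the other lists under these alternatives were added after the data were seen. Depth limits statements on MYCNOS and MLXIPL.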

Other observations

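Other factors with the same bHLH leucine zipper fold, which also recognize E-boxes, were measured beside the network. USF2 rose from 120 to 174 CPM, a log2 fold change of 0.54 (adjusted p = 2.83e-09 by edgeR's quasi-likelihood test), while its partner USF1 had -0.091 and was not called. The sterol regulators SREBF1 and SREBF2 had 0.19 and 0.16, past the adjusted p and under the fold threshold. TFE3, TFEB, MITF and TFAP4 were not called, and TFEC was too low to test. In all, 1 of the 8 tested genes of this list rose (12.5%, near the 11.8% of all genes tested) and 0 fell.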
